A study of Mus musculus with 6 samples.

Results

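The mitosis and spindle genes are 52 listed genes of the G2 phase and of cell division, of which 51 were measured among 18193 genes. They were taken by name, as every gene of the list with a probe set annotated to that gene alone, and each was represented by its brightest probe set over the 6 arrays. Ccnb1, which encodes cyclin B1, had no such probe set and is not analysed here. The samples came from lung tumours of the Rb/p53/p130 triple knockout mouse on a mixed C57BL/6;129Sv/J background, a model of small cell lung cancer in which adenoviral Cre recombinase starts the tumours. Tumours were harvested 6 to 7 months after infection and received no treatment. Cells stained for CD24, CD44 and EpCAM were sorted, and the fractions are tumour-propagating cells (TPCs) and the non-TPCs. Both fractions come from mice of the same engineered genotype, and mice 1127, 920 and 0107 each gave 1 array per fraction. The sources used here do not give the gates of the sort, the promoter that drives Cre or the number of sorted cells. Levels are RMA values on a log2 scale, and a difference is the TPC level minus the non-TPC level, so that 1 is a 2-fold change.

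Division of a cell is driven by cyclin-dependent kinase 1 with its A- and B-type cyclins, which the CDC25 phosphatases switch on. Aurora and Polo-like kinases then build the spindle, kinesin motors move and order its microtubules, and kinetochores tie the chromosomes to it. The spindle checkpoint holds anaphase back until every chromosome is attached, and the anaphase-promoting complex then removes securin and the cyclins. Most of these genes are transcribed from late S phase into mitosis, so their RNA is widely used as a sign of dividing cells. Loss of RB and its relative p130, as engineered in this model, removes repressors of this programme. In sorted bulk samples, fewer dividing cells and less RNA per cell cannot be told apart.

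The promoters are shown first because 2 short elements are known to time genes of this kind. The cell cycle genes homology region (CHR, searched as TTTGAA) is bound by the DREAM and MuvB complexes. The CCAAT box is bound by NF-Y. Whether these elements bear on the differences between the fractions was not tested. Windows of RefSeq promoters (GRCm38.p6, 250 bases before to 50 after the start of a gene) matched 43 of the 51 genes. On either strand, a CHR match stood in the windows of 33 of the 43 genes (76.7%), against 20.2% of the 27025 genes in the promoter table. These 27025 genes were not limited to those measured or well expressed here, unlike the members. CCAAT matched in 30 (69.8%, against 41.1% of all genes), and both elements in the same window in 26 (60.5%, against 7.97%). GCGGGAA, a half-site of E2F factors, matched in 3 (6.98%, against 5.29%). Most CHR matches lay close to the start, with 37 of 49 (75.5%) within 50 bases of it. Over all windows it was 25.3% of 6737 matches. For CCAAT the shares were 32.0% and 28.2%. Matches were counted per window, so a site in overlapping windows of a gene counted more than once. A match is a description of the letters and shows no binding.

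Below are the 150 bases before the start, 5′ to 3′ on the gene's strand, with CHR and CCAAT matches of either strand in capitals. Cdk1, Ube2c, Top2a and Cdc20 are shown because each holds CCAAT boxes and a CHR near the start. In Cdc20 a CCAAT box lies on either side of the CHR, at 53 and 8 bases before the start. Pttg1 and Cdc25b are shown because their differences, given below, went another way than those of most members. The windows are chr10:69352913-69353062 (minus strand) for Cdk1, chr2:164769779-164769928 (plus) for Ube2c, chr11:99024190-99024339 (minus) for Top2a, chr4:118437344-118437493 (minus) for Cdc20, chr11:43425982-43426131 (minus) for Pttg1 and chr2:131186798-131186947 (plus) for Cdc25b.
Cdk1: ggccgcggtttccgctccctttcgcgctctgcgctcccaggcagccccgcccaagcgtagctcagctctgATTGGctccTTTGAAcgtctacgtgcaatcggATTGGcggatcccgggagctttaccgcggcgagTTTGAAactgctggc
Ube2c: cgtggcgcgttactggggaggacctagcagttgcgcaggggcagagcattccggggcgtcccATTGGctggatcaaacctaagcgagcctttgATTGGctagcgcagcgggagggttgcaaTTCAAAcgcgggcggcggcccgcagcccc
Top2a: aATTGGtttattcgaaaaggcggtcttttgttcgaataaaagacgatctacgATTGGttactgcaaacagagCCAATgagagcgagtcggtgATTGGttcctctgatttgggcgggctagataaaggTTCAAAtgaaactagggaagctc
Cdc20: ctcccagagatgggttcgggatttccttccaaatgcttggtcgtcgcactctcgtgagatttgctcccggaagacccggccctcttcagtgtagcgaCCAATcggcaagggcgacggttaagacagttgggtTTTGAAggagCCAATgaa
Pttg1: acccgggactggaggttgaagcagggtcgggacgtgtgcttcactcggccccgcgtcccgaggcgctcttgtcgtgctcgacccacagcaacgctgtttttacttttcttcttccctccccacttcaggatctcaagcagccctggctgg
Cdc25b: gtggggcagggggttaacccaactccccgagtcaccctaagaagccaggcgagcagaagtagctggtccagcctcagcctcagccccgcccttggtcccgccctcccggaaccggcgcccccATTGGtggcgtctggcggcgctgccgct

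In Cdk1 the CHR matches begin 15 and 71 bases before the start and in Cdc20 the match begins 18 bases before it. Ube2c and Top2a carry a CHR at 29 and 23 bases on the opposite strand, written as TTCAAA. No CHR and no CCAAT match fell in the Pttg1 window, and the Cdc25b window held a CCAAT match at 28 bases and no CHR, which says only that these letters are not in these windows. By this element the members' differences were close: those with a CHR match had median differences of 0.14, 0.24 and -0.75 in mice 1127, 920 and 0107, and the 10 matched genes without one had 0.14, 0.36 and -0.89.

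**Figure D1:**
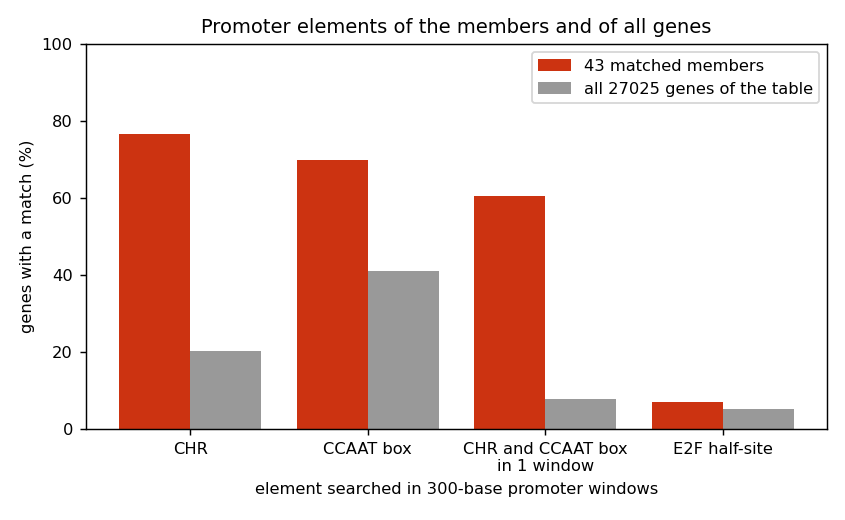
Share of genes (%) with a match to each element in 300-base promoter windows, for the 43 matched mitosis and spindle genes (red) and for all 27025 genes of the promoter table (grey). CHR stands at 76.7% against 20.2%, and both elements together at 60.5% against 7.97%, while the E2F half-site is at 6.98% against 5.29%.

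The arrays had medians of 6.00 to 6.04 over all probe sets. The non-TPC array of mouse 0107 stood apart: its mean correlation with the other arrays over all genes was 0.955, where the other arrays had 0.967 to 0.975, so results are also given without it or its mouse. All 9 measured neuroendocrine markers, which define these tumour cells, were brighter than the median gene (6.91), and their median level was 10.53 to 11.52 in TPCs and 10.57 to 11.22 in non-TPCs. The highest were the granule genes Resp18 and Scg2.

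Mitosis and spindle genes were well expressed in both fractions, with a median level of 9.50 to 9.94 in TPCs and 9.68 to 10.25 in non-TPCs, and none of them differed past the threshold. Of the 51 genes, 50 were brighter than the median gene. No member passed limma at an adjusted p under 0.05, where 0.0605% of all genes did, all of them lower in TPCs. Member adjusted p-values ran from 0.773 to 0.996, and 0 members had an unadjusted p under 0.05, against 6.48% of all genes. A fit with a replicate block for the mouse again passed 0 members (0.0715% of all genes did), and 2, Cdc25b and Kif20b, had an unadjusted p under 0.05 (9.85% of all genes). The median difference of the members was -0.11, beside 0.04 over all genes. In the fit without block, the 95% interval stayed within 1 of 0 for 40 of the 51 members. That is a share of 78.4%, beside 81.4% of all genes. These intervals concern the mean over the mice and do not bound the difference in a single mouse.

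That average covers opposite directions in the mice. Members had a median difference of 0.16 in mouse 1127 and 0.26 in mouse 920, and of -0.80 in mouse 0107, a 1.74-fold lower level in its TPCs. Over all genes the medians were 0.07, 0.05 and -0.03. In mouse 1127, 36 of 51 members (70.6%) were higher in TPCs, beside 59.2% of all genes, and in mouse 920 it was 45 (88.2%, beside 57.8%). In mouse 0107, 4 were higher and 47 (92.2%) lower, beside 53.6% of all genes lower. Without mouse 0107 the median of the members was 0.22, without its non-TPC array alone 0.08 and without its TPC array alone 0.03. Without mouse 1127 or 920 it was -0.25 or -0.28. With the mean of all probe sets of a gene in place of the brightest, the median in mouse 0107 was -0.53 with 47 members lower, and the median over all mice was -0.06. As each mouse gave 1 pair of arrays, the difference between mice has no replicate and was not tested.

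**Figure D2:**
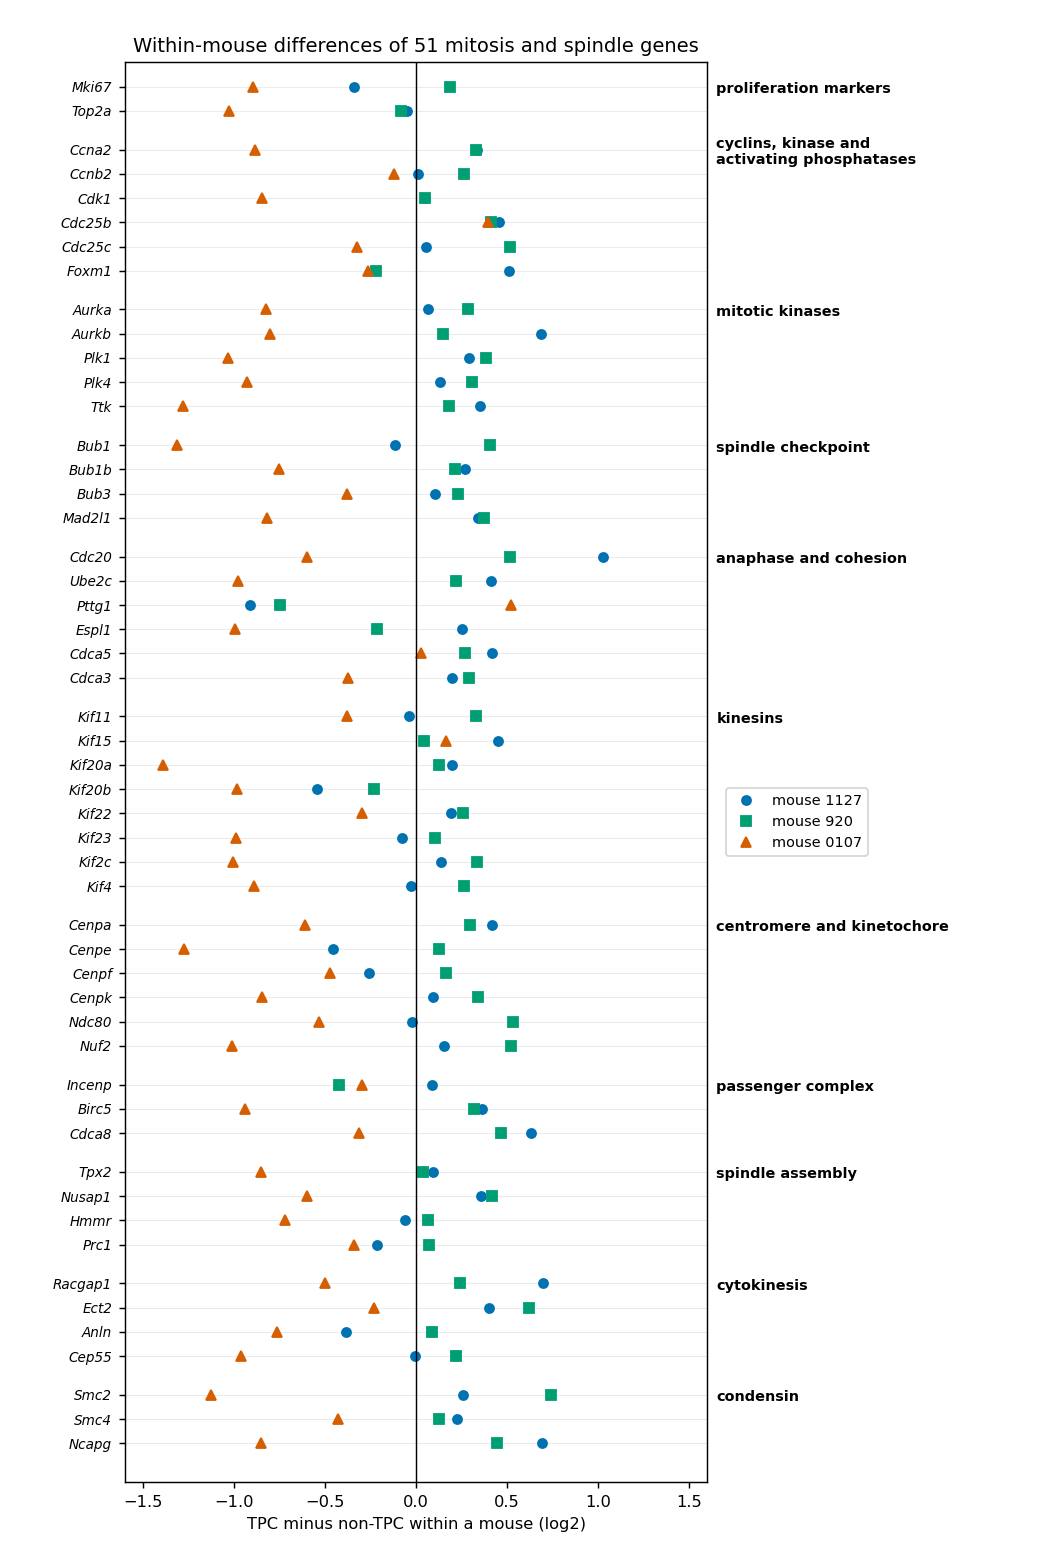
TPC minus non-TPC difference (log2) of each of the 51 measured members, ordered by role, with 1 point per mouse (circles 1127, squares 920, triangles 0107). The triangles of mouse 0107 lie left of 0 for 47 members, and those of Cdc25b, Cdca5, Kif15 and Pttg1 lie right of it.

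The commonest sign pattern, picked out after its values were seen, was higher in TPCs of mice 1127 and 920 and lower in those of mouse 0107. It held for 30 of 51 members (58.8%), where 21.1% of all genes had it, and 1635 of the 9096 genes above the median level. The related lists described below shared it, with 40 of 92 other mitosis genes (43.5%) and 16 of 31 S phase genes (51.6%). A further 12 members differed from the commonest pattern only in mouse 1127, where they were lower in TPCs, among them Mki67, Bub1 and Cenpe. Espl1, Foxm1 and Incenp were higher in TPCs of mouse 1127 alone. Cdc25b, Cdca5 and Kif15, 3 of 51 or 5.88%, were higher in TPCs of all 3 mice, against 19.7% of all genes, and Kif20b and Top2a (3.92%) were lower in all 3, against 13.8%. Pttg1 alone (1.96%) was lower in mice 1127 and 920 and higher in mouse 0107, a pattern of 10.1% of all genes. Both arrays of mouse 0107 contributed: its TPC array was the lowest of the 6 for 27 members (12.3% of all genes) and its non-TPC array the highest for 23 (28.2% of all genes). Both held for 9 members, or 17.6%, where 2.84% of all genes had this.

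Across the 51 members the differences in mice 1127 and 920 had a Pearson correlation of 0.48, and those in mouse 0107 correlated with them at 0.04 and -0.20. These values describe genes measured on the same probe sets, and the pairs of arrays behind them share no array.

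**Figure D3:**
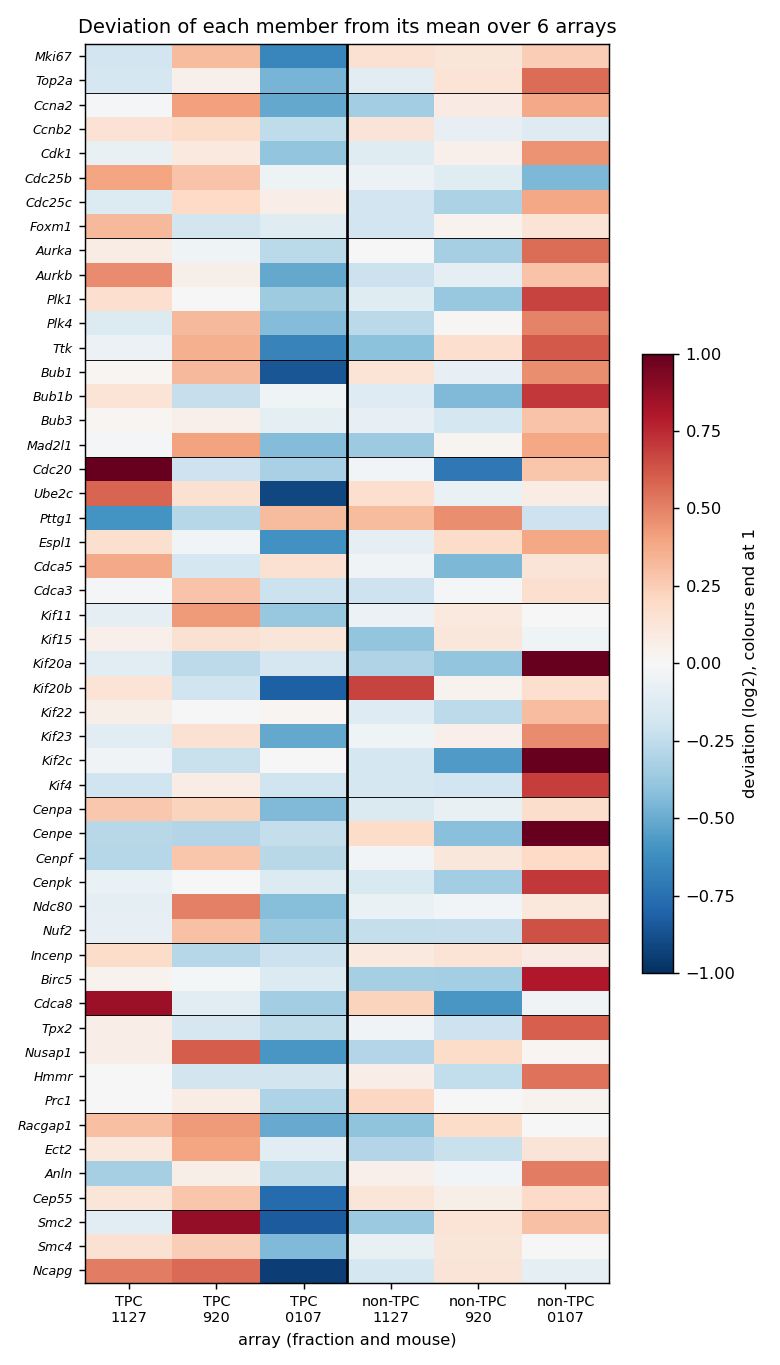
Deviation (log2) of each member from its own mean over the 6 arrays, with members in rows grouped by role (lines) and arrays in columns, TPCs left and non-TPCs right of the black line. Blue is most common in the TPC array of mouse 0107, the lowest array for 27 members, and red in its non-TPC array, the highest for 23.

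In the values that follow, mice are in the order 1127, 920 and 0107, and means are given with the SD (n = 3). Mki67, the Ki-67 protein that coats mitotic chromosomes and is the standard stain for dividing cells, was at 11.94, 12.44 and 11.48 in TPCs and at 12.28, 12.25 and 12.38 in non-TPCs. The fractions overlapped, because TPCs of mouse 920 had the highest value of all. Its means were 11.96 ± 0.48 in TPCs and 12.31 ± 0.06 in non-TPCs, a difference of -0.35 (SE 0.24, 95% interval -0.93 to 0.24, limma adjusted p = 0.886). Top2a, the topoisomerase that untangles sister DNA, read 11.38, 11.60 and 11.09 in TPCs against 11.44, 11.69 and 12.11 in non-TPCs. It was lower in all 3 mice, but by 0.05 and 0.08 in the first and the second of them, and -1.03 in mouse 0107 carried most of its mean difference of -0.39 (SE 0.22, adjusted p = 0.873).

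Among the cyclins, their kinase and its activators, Cdk1 itself stood at 10.83, 11.01 and 10.52 in TPCs and at 10.79, 10.96 and 11.36 in non-TPCs. TPCs and non-TPCs of mice 1127 and 920 lay within 0.05 of each other, and those of mouse 0107 were apart by 0.85. Ccna2, cyclin A2, differed by 0.33, 0.33 and -0.89, and Ccnb2, cyclin B2, by 0.01, 0.27 and -0.12. Cdc25c, a phosphatase that activates CDK1, differed by 0.06, 0.51 and -0.32, and Foxm1, the factor that drives G2 and M phase genes, by 0.51, -0.22 and -0.26.

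Cdc25b, the phosphatase that starts CDK1 activation at entry into mitosis, was the exception of this group. It measured 9.24, 9.14 and 8.80 in TPCs and 8.79, 8.73 and 8.40 in non-TPCs. Every TPC value lay above every non-TPC value, which no other member showed (1 of 51, or 1.96%, beside 6.71% of all genes), and no member had all TPC values below the non-TPC values (5.91% of all genes). Its differences of 0.46, 0.41 and 0.39 were near equal in the mice. Their mean of 0.42 (SE 0.18, 95% interval -0.01 to 0.85) did not pass in limma, whose adjusted p was 0.773 without and 0.388 with the replicate block. The array held 1 probe set for Cdc25b, so no second one bears on it.

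**Figure D4:**
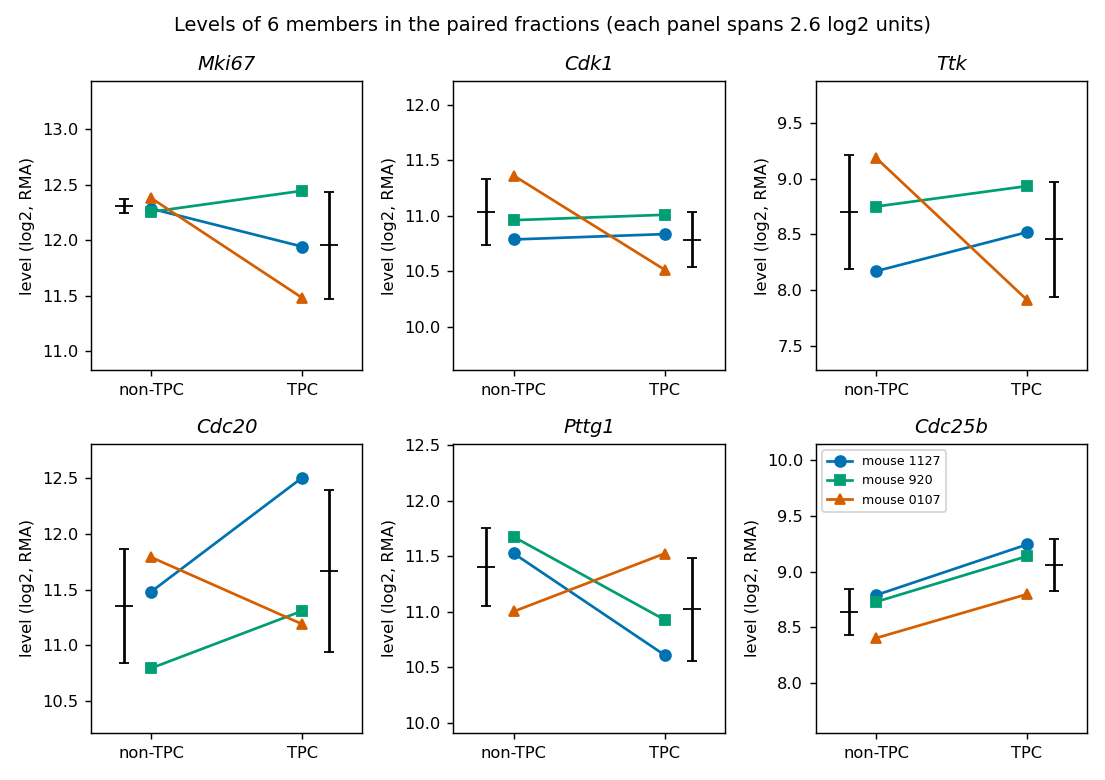
Levels (log2, RMA) of 6 members in non-TPCs and TPCs, with a line for each mouse and, beside them, the mean and SD of each fraction (n = 3); all panels span the same range. The line of mouse 0107 slopes down in Mki67, Cdk1, Ttk and Cdc20 and up in Pttg1, while the lines of Cdc25b run nearly parallel with differences of 0.46, 0.41 and 0.39.

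All 5 mitotic kinases were higher in TPCs of mice 1127 and 920 and lower in mouse 0107. Plk4, which starts centriole duplication, was at 10.38, 10.83 and 10.08 in TPCs and at 10.24, 10.53 and 11.01 in non-TPCs. The checkpoint kinase Ttk (MPS1) read 8.52, 8.94 and 7.91 in TPCs and 8.17, 8.75 and 9.19 in non-TPCs, so that mouse 0107 held both its lowest and its highest value. Its within-mouse differences were 0.35, 0.18 and -1.28, with a mean of -0.25 (SE 0.34, adjusted p = 0.933). Aurka, which matures the spindle poles, differed by 0.07, 0.29 and -0.82. Aurkb, the kinase of the chromosomal passenger complex, differed by 0.68, 0.15 and -0.80, and Plk1, the kinase of mitotic entry and exit, by 0.29, 0.38 and -1.03.

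The spindle checkpoint genes had medians over 4 genes of 0.19, 0.30 and -0.78. Bub3, a checkpoint scaffold that also serves outside mitosis, varied least among them: it was at 12.49, 12.52 and 12.37 in TPCs and 12.38, 12.29 and 12.75 in non-TPCs. Bub1, the kinase that marks centromeres for cohesion, was at 9.45, 9.75 and 8.58 in TPCs and at 9.56, 9.34 and 9.89 in non-TPCs. Its value in TPCs of mouse 0107 lay below all others, and the mean difference was -0.34 (SE 0.32, adjusted p = 0.904). Bub1b (BUBR1) and Mad2l1 (MAD2), which bind and hold CDC20, differed by 0.27, 0.21 and -0.75 and by 0.34, 0.38 and -0.82.

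Genes of anaphase and cohesion held members of opposite sign in every mouse. Cdc20, which activates the anaphase-promoting complex, reached 12.51, 11.31 and 11.19 in TPCs against 11.48, 10.79 and 11.79 in non-TPCs. Its difference of 1.03 in mouse 1127 was the largest upward value of any member in any mouse, and the mean of 0.31 (SE 0.41, 95% interval -0.68 to 1.30, adjusted p = 0.927) did not pass. Ube2c, the ubiquitin carrier of that complex, differed by 0.41, 0.22 and -0.98.

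Pttg1, the securin that keeps separase inactive until anaphase, ran the other way. It was at 10.61, 10.93 and 11.52 in TPCs and at 11.53, 11.67 and 11.00 in non-TPCs. TPCs of mice 1127 and 920 thus lay below all non-TPC values, and TPCs of mouse 0107 did not. The differences were -0.91, -0.75 and 0.52 (mean -0.38, SE 0.28, adjusted p = 0.89). Its other probe sets showed the same signs, at -0.70, -0.46 and 0.72 and at -0.70, -0.54 and 0.30. Espl1, the separase that Pttg1 inhibits, differed by 0.25, -0.21 and -0.99. Cdca5 (sororin), which protects cohesion, differed by 0.42, 0.27 and 0.03, and Cdca3, a substrate adaptor at mitotic entry, by 0.20, 0.29 and -0.38.

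The 8 kinesins had medians of 0.05, 0.19 and -0.94. Kif22, which pushes chromosome arms from the poles, was at 11.39, 11.33 and 11.35 in TPCs and at 11.20, 11.07 and 11.64 in non-TPCs, so the fractions overlapped. Kif20b, a motor of late cytokinesis, had the largest mean difference of any member. It was at 8.74, 8.41 and 7.79 in TPCs and at 9.28, 8.64 and 8.77 in non-TPCs, with overlap, since TPCs of mouse 1127 lay above the non-TPCs of mouse 920. The differences of -0.54, -0.23 and -0.98 gave a mean of -0.58 (SE 0.29, adjusted p = 0.823, or 0.405 when the mouse was blocked). Dimmer Kif20b probe sets had mean differences of 0.19, -0.30 and -0.08, so the value rests on the brightest.

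Kif20a, which carries the passenger complex to the midzone, differed by 0.20, 0.13 and -1.39, the lowest value of any member. Its non-TPC level in mouse 0107 was 9.27, where the other arrays had 7.65 to 7.94. Kif2c (MCAK), which removes wrong attachments, differed by 0.14, 0.34 and -1.01 and was likewise highest in that array, at 10.66. Kif4, a chromosome-arm motor, and Kif23, of the central spindle, differed in mouse 0107 by -0.89 and -0.99, and Kif11 (Eg5), which separates the poles, by -0.38. Kif15 was the 1 member dimmer than the median gene, at a mean of 5.15, and differed by 0.45, 0.04 and 0.16.

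At centromeres and kinetochores all 6 genes were lower in TPCs of mouse 0107 and higher in those of mouse 920. Cenpa, the histone variant that marks centromeres, stood at 11.04, 11.00 and 10.34 in TPCs and at 10.63, 10.70 and 10.95 in non-TPCs. Cenpe, a kinetochore motor, was at 8.78, 8.77 and 8.82 in TPCs and at 9.24, 8.64 and 10.09 in non-TPCs. On this probe set its TPC values hardly varied, and the non-TPC array of mouse 0107 was high, which gave a mean of -0.53 (SE 0.35, 95% interval -1.36 to 0.29, adjusted p = 0.877). A second Cenpe probe set was nearly as bright, with a mean of 9.03 beside 9.06. It read 8.94, 9.49 and 8.33 in TPCs and 9.15, 8.95 and 9.33 in non-TPCs, so there the TPC array of mouse 0107 was the lowest. Ndc80 and Nuf2, which form the microtubule-binding complex, differed by -0.02, 0.53 and -0.54 and by 0.16, 0.52 and -1.01. Cenpf differed by -0.26, 0.16 and -0.47, and Cenpk, a constitutive centromere protein, by 0.09, 0.34 and -0.85.

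Of the passenger complex, Cdca8 (borealin) was at 12.70, 11.73 and 11.49 in TPCs and at 12.06, 11.26 and 11.80 in non-TPCs. Its highest value was in TPCs of mouse 1127, as for Cdc20, and the mean difference was 0.26 (SE 0.36, adjusted p = 0.933). Birc5 (survivin) differed by 0.36, 0.32 and -0.94, and the scaffold Incenp by 0.09, -0.42 and -0.30. Among spindle assembly genes, Prc1, which bundles midzone microtubules, was at 10.58, 10.66 and 10.28 in TPCs and at 10.79, 10.59 and 10.62 in non-TPCs. Tpx2, which activates Aurora A, read 9.36, 9.12 and 9.04 in TPCs and 9.26, 9.09 and 9.89 in non-TPCs, apart in mouse 0107 only. Nusap1 differed by 0.36, 0.42 and -0.60 and Hmmr, a spindle pole protein, by -0.06, 0.07 and -0.72.

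Cytokinesis genes had medians of 0.20, 0.23 and -0.63. Ect2, the exchange factor that switches on RhoA at the division plane, was at 10.59, 10.88 and 10.38 in TPCs and at 10.19, 10.26 and 10.61 in non-TPCs. Anln (anillin), the scaffold of the contractile ring, read 9.26, 9.65 and 9.34 against 9.64, 9.57 and 10.11 (mean difference -0.35, SE 0.20, adjusted p = 0.868). Its dimmer probe set, with a mean level of 7.29, differed by 0.46, 0.59 and -0.36, a mean of 0.23, so the sign of the mean rests on the brightest. Racgap1, the partner of Kif23, differed by 0.70, 0.24 and -0.50, and Cep55, of the midbody, by -0.01, 0.22 and -0.96.

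The condensin genes, whose products compact mitotic chromosomes, all had the commonest pattern on their brightest probe sets. Smc4 stood at 12.25, 12.34 and 11.66 in TPCs and at 12.02, 12.22 and 12.09 in non-TPCs. Ncapg was at 10.33, 10.38 and 8.87 in TPCs and at 9.64, 9.94 and 9.72 in non-TPCs. On this probe set the TPC array of mouse 0107 stood apart, and the mean difference of 0.09 (SE 0.41) averages 0.69, 0.44 and -0.85. The dimmer Ncapg probe set read 8.62, 8.59 and 8.30 in TPCs and 8.54, 8.58 and 9.32 in non-TPCs. There the non-TPC array of mouse 0107 stood apart, and the mean difference was -0.31. Smc2 differed by 0.26, 0.74 and -1.13. The second brightest probe set of Smc4 differed by -0.07, 0.26 and -0.88, and that of Smc2 by 0.49, -0.03 and -0.87. Neither had the commonest pattern. A further, dimmer probe set of each gene had it, and the dimmest ones of Smc2 did not.

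Dimmer probe sets of the members were also mostly lower in TPCs of mouse 0107. Of 71 further probe sets of 36 members, 57 were lower there, with medians of 0.13, 0.12 and -0.35 in the mice. Of the 37 above the median level, the sign of the brightest one recurred in 27, 32 and 34 in mice 1127, 920 and 0107. The exceptions include Top2a, whose second probe set differed by 0.20 in mouse 0107, and Cdc20 had the same signs in all 3 of its probe sets.

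Other mitosis genes, outside the 52, were likewise mostly lower in TPCs of mouse 0107. Of 92 measured, 0 passed in either direction and 0 had an unadjusted p under 0.05, with medians of 0.06, 0.20 and -0.45, and 80 (87.0%) were lower in TPCs of mouse 0107, beside 53.6% of all genes. With the replicate block 2 of the 92 had an unadjusted p under 0.05 and 0 passed. The smallest unadjusted p-values belonged to Fzr1, an activator of the anaphase-promoting complex (difference 0.38, adjusted p = 0.784), the centromere gene Cenpi (-0.41, 0.803), Anapc2, a subunit of that complex (-0.35, 0.873), and Mad1l1, a checkpoint gene with a dim signal of 4.37 (0.21, 0.873). For genes of S phase, the medians of 31 measured of 33 were 0.10, 0.24 and -0.27, 0 passed and 0 had an unadjusted p under 0.05. Of these 31, 24 (77.4%) were lower in TPCs of mouse 0107. Pcna, the sliding clamp of replication, differed by 0.08, 0.22 and -0.08, and the helicase subunit Mcm7 by -0.02, -0.30 and -0.49. The difference between these lists and the members was not tested.

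**Figure D5:**
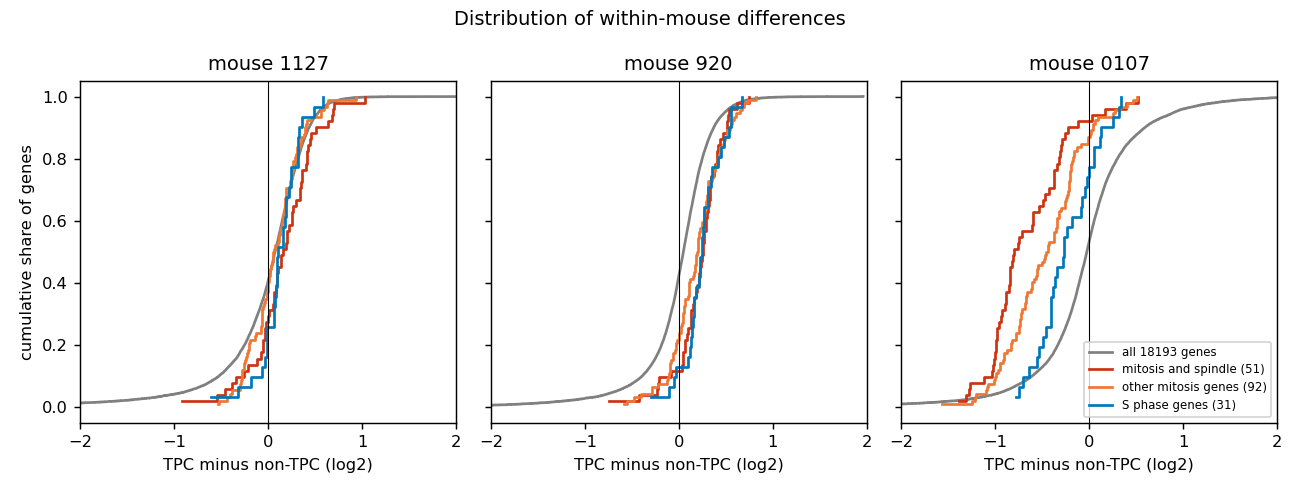
Cumulative share of genes against the within-mouse difference (log2), 1 panel per mouse, for all 18193 genes (grey), the 51 members (red), 92 other mitosis genes (orange) and 31 S phase genes (blue); differences beyond 2 are not drawn. In mouse 0107 the medians are -0.80, -0.45 and -0.27 for members, other mitosis genes and S phase genes and -0.03 for all genes.

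Markers of other cells also differed between the fractions. Of 8 alveolar type 2 markers, 7 were lower in TPCs of all 3 mice, with median levels of 7.29 to 7.79 in TPCs and 8.58 to 9.49 in non-TPCs and the highest means for Sftpc and Sftpd, and 2 passed in limma. The same held for 5 of 7 fibroblast markers (5.19 to 5.34, and 5.60 to 9.53; highest Dcn and Col1a2) and 3 of 6 endothelial markers (4.52 to 4.99, and 4.88 to 7.01; highest Kdr and Cldn5). Leukocyte markers had 4 of 6 (6.30 to 7.37, and 7.38 to 8.48; highest Laptm5 and Coro1a), neutrophil markers 3 of 4 (5.39 to 5.72, and 7.11 to 8.09; highest S100a8 and S100a9) and erythroid markers, Alas2 and Hba-a1, 0 of 2 (4.62 to 4.77, and 4.50 to 5.10). The 2 brightest leukocyte markers were not among those 4. In mice 1127, 920 and 0107, Coro1a differed by 0.16, 0.18 and 0.95, and Laptm5 by -0.64, -0.03 and 0.73. Of the neutrophil markers, 1 passed as well in this fit without block. With the replicate block, 1 alveolar type 2 marker, 1 leukocyte marker and no neutrophil marker passed. No marker is at 0 on the RMA scale. The list medians of the differences in mice 1127, 920 and 0107 were -1.73, -2.02 and -1.18 for alveolar type 2 markers, -2.24, -1.29 and -0.57 for fibroblasts and -1.86, -1.28 and -0.84 for leukocytes, each closest to 0 in mouse 0107. They were -2.66, -1.28 and -2.02 for neutrophils. The endothelial list (-1.04, -0.01 and -1.83) and the erythroid list (0.12, -0.07 and -0.33) were lowest in mouse 0107. Mycn, an oncogenic MYC family factor, stood at 10.64 in TPCs and at 13.70 in non-TPCs of that mouse, where the other arrays had 6.94 to 7.44. Epcam, a gene whose protein was stained for the sort, had its lowest levels on the arrays of mouse 0107, 9.98 for non-TPCs and 11.57 for TPCs, and ran from 12.91 to 13.35 on the other 4. The genes of the other stained proteins, Cd44 and Cd24a, differed by -3.01, -3.01 and -2.68 and by 0.05, 0.12 and 0.69 in mice 1127, 920 and 0107. The part of these cells, of Mycn, of Epcam and of the array that stood apart in the mitotic pattern of mouse 0107 was not tested.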

How the data were processed

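RNA of 6 sorted samples was measured on 1-colour Affymetrix arrays with the Affymetrix WT Plus kit, per the labels. Per the submitters' processing notes, the authors summarised probe sets by RMA, and the deposited table is in log2 units. Neither the version of RMA nor its probe set definitions nor the base of the log is stated in the sources used here, so log2 was inferred from the values, which end at 14.81. Of 45101 probe sets, 34945 were annotated to 1 gene, 932 to several and 9160 to none, beside 64 controls. Symbols were updated through RefSeq (GRCm38.p6) for 18032 of 18193 genes. The annotation is that of a 3′ expression array, while the labelled kit makes whole-transcript targets, and no source used here says how they were joined. Arrays have no read depth, and 3 per fraction limit the precision.

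A two-sided limma test (version 3.58.1, R 4.3.3) was fitted to all genes with lmFit and eBayes and no term but the fraction, with Benjamini-Hochberg adjustment over all genes and a threshold of 0.05. Fractions of a mouse come from 1 animal, as the titles say, and deviations of its 2 arrays from their fraction means correlated at 0.30, 0.46 and 0.36 in mice 1127, 920 and 0107 (at most -0.08 between mice), so a replicate block for the mouse was fitted beside it. The mice are the replicates, so p-values measure the spread between mice. The procedure was tested on simulated data with genes changed by known amounts. For a change of 1 log2 unit, the fit without block recovered 42.7% of them and the fit with the replicate block 5.07%. For a change of 2 units, the shares were 82.4% and 72.5%. The absence of calls among the members, above all with the block, therefore says little about 2-fold changes. Alternatives were a random block, leaving out each mouse or array, the mean of all probe sets, a filter at the median level, a further quantile normalisation and an intensity trend. The members and lists were chosen with earlier results of these data known. Per role, array values are given for the member with the highest mean and the one with the largest difference. Other members are named with their differences, and the 4 other mitosis genes with the smallest p and the 2 brightest genes of other lists are named. Figures were drawn with matplotlib 3.10.9.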

Additional observations from a re-analysis of the deposited data

How the results depend on the processing

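No member passed in any of the 15 alternatives, and 0 to 4 members had an unadjusted p under 0.05. The median difference of the members moved from -0.28 to 0.22 with the mice and arrays left out and was -0.11 with the replicate block, -0.06 with the mean of all probe sets and -0.06 with a further quantile normalisation, which gave -0.79 in mouse 0107. The count of members higher in TPCs of all included mice was 3 and ranged from 3 to 33 when a mouse or array was left out, with 33 where mouse 0107 or either of its arrays was left out and only the other mice were counted. Those 33 are the 30 members of the commonest pattern and the 3 higher in all 3 mice, so the count is no separate check. Over all genes, 21.1% and 19.7% had these patterns. Over all genes 11 passed, 13 with the replicate block, 39 with a random block, 4 with the mean of all probe sets and 0 to 84 when a mouse or array was left out. Precision is set by 3 arrays per fraction: the median SE of a member was 0.24.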
